A study of Mus musculus with 12 samples.

Results

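A set of 10 genes that mark how far an antigen-presenting cell has been activated were followed in cells of the mouse epidermis: Cd83, Cd86, Cd80, Cd40, Cd274, Pdcd1lg2, Icam1, Fscn1, Marcksl1 and Socs3. They were taken by symbol, and all 10 have a row among the 23420 symbols of the deposited table. The cells came from the epidermis by flow sorting on CD45, CD11b and MHC class II with CD3+ cells left out, in tubes of 100 cells. Wild-type mice (wt) and Cbfβ2 knockout mice (KO) were each sampled 5 days after birth (P5) and at 1.5 months of age (1.5M). Cbfβ2 is a splice form of the partner protein of the Runx transcription factors. Each of the 4 groups had 3 libraries, 12 in all, and the labels state only that these are separate library preparations. The p-values therefore measure the spread between preparations, which may be technical. The sources used here do not give strain, sex, the number of mice per tube or the extent of the deletion.

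Dendritic cells and their relatives in the epidermis, the Langerhans cells, take up antigen while immature and then mature as they leave for the lymph node. A maturing cell displays CD80 and CD86, the B7 ligands that engage CD28 on T cells, and the receptor CD40, through which T cells signal back to it. The same cell can carry PD-L1 (Cd274) and PD-L2 (Pdcd1lg2), ligands of the inhibitory receptor PD-1, and it uses ICAM-1 to hold the T cell through the integrin LFA-1. Fascin and proteins of the MARCKS family remodel the actin of its processes, and SOCS3 restrains cytokine receptors that signal through STAT3.

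Values are scaled molecule counts, that is, molecules of RNA per gene after each library had been brought to the same total of 37092. At P5 the wt libraries held 34192 to 52208 molecules and the KO libraries 30913 to 51001, and at 1.5M they held 40254 to 51848 and 74620 to 77419. Depth was thus greatest in the KO at 1.5M, which matters for members counted in a few molecules. The 3 genes of the sort markers CD45, CD11b and MHC class II (Ptprc, Itgam, H2-Ab1) were above 0 in all 12 libraries, Cd3e and Cd3g were at 0 in all 12, and Cd3d had 1 molecule, in P5 KO library 3. Cbfb, counted without regard to splice form, stood at 3.91 to 4.97 in wt and 1.45 to 3.63 in KO at P5, and at 7.15 to 13.8 in wt and 0.994 to 2.40 in KO at 1.5M. Cd207 (langerin), the defining gene of Langerhans cells, was at 0.71 to 2.93 in the wt libraries and 0 in the KO libraries at P5, and reached 189 to 252 in wt and 18.7 to 24.9 in KO at 1.5M. In such bulk libraries fewer cells of a type and less RNA per cell cannot be told apart.

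Cd83 and Cd86 were low in the newborn and higher in wild-type cells at 1.5M. Cd83 rose in the knockout as well, and its genotype difference at 1.5M was not called. Cd86 was lower in the knockout at 1.5M. The Cd86 calls, with age in wt and for KO at 1.5M, were lost in 5 and 7 of 20 alternatives. Socs3 showed another pattern, with its highest values in the knockout at both ages. CD80, PD-L1, PD-L2 and fascin transcripts were counted in at most 12 molecules over the whole series, and no change of these members could be called.

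**Figure D1:**
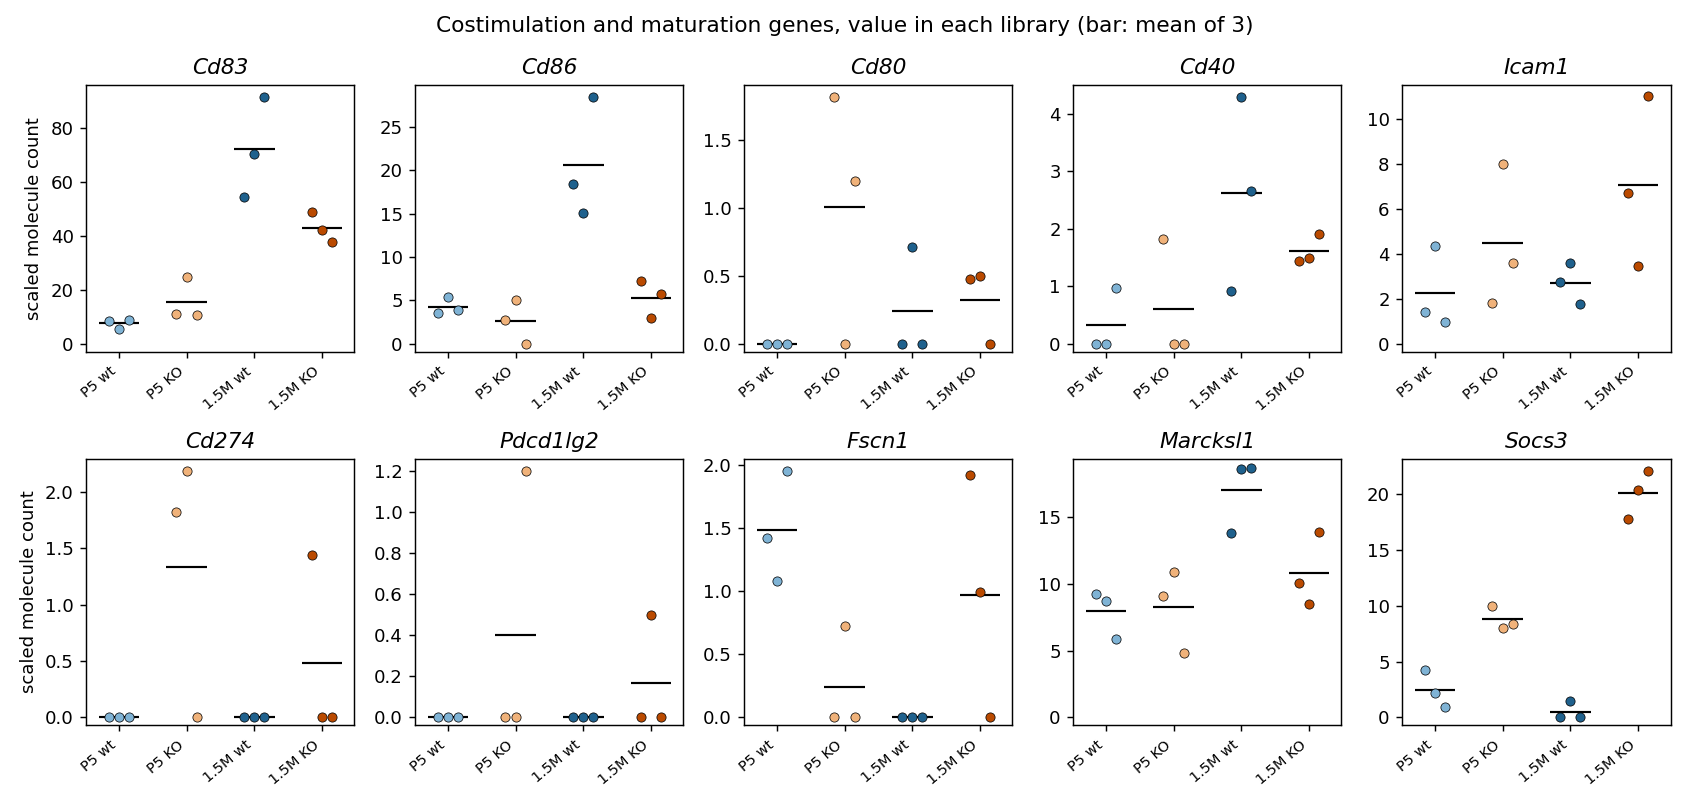
Scaled molecule count (vertical axis, linear, a separate scale per gene) of the 10 genes in each of the 12 libraries, with points for libraries and a bar for the mean of the 3 libraries of a group. Cd83, Cd86, Cd40 and Marcksl1 have their highest group mean in 1.5M wt, and Socs3 has its lowest there (0.477) and its highest in 1.5M KO (20.1).

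Cd83 encodes a surface protein of the immunoglobulin family that is a standard marker of mature dendritic cells (chromosome 13, 43784775 to 43803132, plus strand, mm10). It was counted in 607 molecules in all. The scaled counts were 8.53, 5.42 and 8.79 in P5 wt and 10.9, 24.7 and 10.8 in P5 KO. At 1.5M they were 54.4, 70.1 and 91.5 in wt and 48.9, 42.3 and 37.8 in KO. Every 1.5M library lay above every P5 library, and the wild-type and knockout ranges did not overlap at either age, with the knockout the higher at P5 and the lower at 1.5M. The gap at P5 was narrow, from 8.79 to 10.8. Libraries 1 and 3 there held 12 and 9 Cd83 molecules in wt and the same numbers in KO, so they differed through scaling alone. With 3 libraries against 3, an exact permutation test cannot go below p = 0.1. Between P5 and 1.5M Cd83 rose 9.50-fold in wt, from 7.58 ± 1.87 to 72.0 ± 18.6 (SD, n = 3; log2 change 3.08, SE 0.29, adjusted p = 1.72e-07 by limma). In KO it rose 2.78-fold, from 15.5 ± 8.01 to 43.0 ± 5.57 (log2 change 1.51, SE 0.29, adjusted p = 0.00284).

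The knockout and wild-type levels of Cd83 did not differ past the threshold at either age. The log2 difference was 0.86 (SE 0.29, adjusted p = 0.156 by limma) at P5 and −0.71 (SE 0.29, adjusted p = 0.209) at 1.5M. Their difference, 1.5M minus P5, was −1.57 (SE 0.41, adjusted p = 0.0446), so the knockout effects at the 2 ages, of opposite sign, differed in this test. That call was close to the threshold. It was lost when any 1 library was left out other than 1.5M wt library 1, P5 KO library 1 or P5 KO library 3, with adjusted p from 0.0526 to 0.154. In order of level the groups ran P5 wt, P5 KO, 1.5M KO and 1.5M wt, and only the step from P5 KO to 1.5M KO was a call between neighbours. The rise in KO was also lost when the 6 KO libraries were fitted alone (adjusted p = 0.101).

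Cd86 encodes the B7-2 ligand of CD28 and CTLA-4 (chromosome 16, 36603869 to 36666081, minus strand). It was counted in 130 molecules. Its scaled counts were 3.55, 5.42 and 3.91 in P5 wt and 2.72, 5.09 and 0 in P5 KO. At 1.5M they were 18.4, 15 and 28.4 in wt and 7.19, 2.98 and 5.75 in KO. The 3 libraries of 1.5M wt stood above all 9 others, whose ranges overlapped one another. Cd86 rose 4.80-fold with age in wt, from 4.29 ± 0.994 to 20.6 ± 6.97 (log2 change 2.0, SE 0.49, adjusted p = 0.0161 by limma). At 1.5M it was 3.89-fold lower in KO, with 5.31 ± 2.14 (log2 difference −1.79, SE 0.49, adjusted p = 0.0300).

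The age call of Cd86 in wt was lost when P5 wt library 1 (adjusted p = 0.0736) or 3 (0.0543) was left out, or 1.5M wt library 3 (0.0944), and after thinning all libraries to equal depth (0.0704). The knockout call at 1.5M was lost without P5 wt library 1 (0.0504), 1.5M wt library 1 (0.0813), 2 (0.0578) or 3 (0.169), and 1.5M KO library 2 (0.213) or 3 (0.103). A pseudocount of 0.1 in place of 1 ended both calls (0.262 and 0.369). In the remaining comparisons no call was made. The log2 values for Cd86 were −0.89 (adjusted p = 0.472) for KO against wt at P5, 1.09 (adjusted p = 0.299) for age in KO and −0.91 (95% interval −2.33 to 0.52, adjusted p = 0.644) for the difference between the knockout effects.

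Cd80, the B7-1 ligand, gave 6 molecules in 12 libraries and was at 0 in all of P5 wt. It stood at 1.82, 0 and 1.2 in the P5 knockout, at 0, 0.715 and 0 in the 1.5M wild type and at 0.480, 0.497 and 0 in the 1.5M knockout. Single molecules made up most of these values, and the groups overlapped. A group with no molecule could still hold a gene at the level of 3 molecules over its libraries, which at P5 is 0.895 scaled counts for wt and 0.907 for KO and at 1.5M is 0.831 for wt and 0.485 for KO, counting error only.

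Cd40, the receptor of CD40 ligand, gave 23 molecules. It was at 0, 0 and 0.977 in P5 wt and at 1.82, 0 and 0 in P5 KO. At 1.5M it was at 0.921, 4.29 and 2.67 in wt and at 1.44, 1.49 and 1.92 in KO. All 6 libraries at 1.5M held Cd40 molecules, against 2 of 6 at P5. The age difference in wt rests on 10 molecules against 1, a ratio of 9.29 with a 95% counting interval of 1.32 to 403, and was not called (log2 change 1.41, SE 0.54, adjusted p = 0.150 by limma).

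Icam1 encodes the ligand of LFA-1 (chromosome 9, 21015985 to 21028817, plus strand) and was above 0 in every library. Its scaled counts were 1.42, 4.34 and 0.977 in P5 wt and 1.82, 8.0 and 3.60 in P5 KO. At 1.5M the wt libraries gave 2.76, 3.58 and 1.78 and the KO libraries 6.71, 3.48 and 11. The ranges overlapped in each comparison. At 1.5M the Icam1 mean was 7.07 ± 3.78 with the knockout and 2.71 ± 0.901 without (log2 difference 1.04, SE 0.49, 95% interval 0.03 to 2.05, adjusted p = 0.312 by limma). At P5 the log2 difference was 0.73 (adjusted p = 0.588), and the age changes were 0.30 in wt (adjusted p = 0.781) and 0.61 in KO (adjusted p = 0.665).

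The PD-1 ligands were counted in knockout libraries only, at a depth that allows no comparison. Cd274 gave 8 molecules, with 2, 3 and 0 in the P5 KO libraries (1.82, 2.18 and 0 scaled counts) and 3, 0 and 0 in those of 1.5M KO (1.44, 0 and 0). All 6 wild-type libraries were at 0. The P5 KO mean was 1.49-fold above the 3-molecule level in P5 wt, leaving out its own counting error. The test made no call (adjusted p = 0.260 by limma). Pdcd1lg2 gave 2 molecules, 1 in P5 KO library 3 and 1 in 1.5M KO library 2, and was the single member below the filter of 3 libraries above 0, so it was not tested.

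Fscn1 encodes fascin, the actin-bundling protein of mature dendritic cell processes. It gave 12 molecules, at 1.42, 1.08 and 1.95 scaled counts in P5 wt and 0, 0.727 and 0 in P5 KO. At 1.5M it was at 0 in all wt libraries and at 1.92, 0.994 and 0 in the KO libraries. Fscn1 was thus listed in all 3 P5 wt libraries and in none at 1.5M wt, the reverse of the order of Cd83 and Cd86. The P5 wt mean was 1.79-fold above the 3-molecule level in 1.5M wt, leaving out its own counting error. The change was not called (log2 change −1.30, SE 0.44, adjusted p = 0.0972 by limma). Nor was the difference between the knockout effects (1.88, SE 0.62, adjusted p = 0.139).

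Marcksl1 encodes a MARCKS-related protein that binds actin and calmodulin (chromosome 4, 129513581 to 129515985, plus strand). Its scaled counts were 9.24, 8.68 and 5.86 in P5 wt and 9.08, 10.9 and 4.80 in P5 KO. At 1.5M they were 13.8, 18.6 and 18.7 in wt and 10.1, 8.45 and 13.9 in KO. The P5 groups overlapped, and the 1.5M wt libraries lay above all of P5. The age difference in wt was 2.15-fold, from 7.93 ± 1.81 to 17.0 ± 2.78, just outside the threshold (log2 change 1.02, SE 0.32, adjusted p = 0.0627 by limma). It passed with median-of-ratios scaling (0.0264), with a pseudocount of 10 (0.0401), with a filter of 6 libraries (0.0404) and without P5 KO library 3 (0.0367). KO and wt at 1.5M differed by −0.62 (SE 0.32, adjusted p = 0.370).

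Socs3 encodes a feedback inhibitor of cytokine receptors that is itself induced by STAT3 (chromosome 11, 117966079 to 117970047, minus strand). It was counted in 164 molecules. Its scaled counts were 4.26, 2.17 and 0.977 in P5 wt and 9.99, 8.0 and 8.40 in P5 KO. At 1.5M they were 0, 1.43 and 0 in wt and 17.7, 20.4 and 22.0 in KO. The knockout libraries lay above the wild-type libraries at both ages. The gap was widest at 1.5M, where the 3 wt libraries held 2 molecules together and the 3 KO libraries 124.

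At 1.5M Socs3 was higher in KO, at 20.1 ± 2.17 against 0.477 ± 0.826 (SD, n = 3; log2 difference 3.96, SE 0.41, adjusted p = 6.32e-07 by limma). The ratio of the pooled molecules per depth was 36.2, with a 95% counting interval of 9.81 to 302. This call was made under all 20 alternative settings. At P5 it was 3.56-fold higher in KO, with 8.80 ± 1.05 against 2.47 ± 1.66 (log2 difference 1.61, SE 0.41, adjusted p = 0.0481). The P5 call was lost when any 1 library was left out other than P5 wt library 1 or 1.5M wt library 2, with adjusted p from 0.0501 to 0.206, in a fit of the 6 P5 libraries alone (0.267), with a pseudocount of 0.1, without a filter, after thinning and with the replicate block (up to 0.389).

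The knockout effect on Socs3 was larger at 1.5M than at P5 by 2.36 on the log2 scale (SE 0.59, adjusted p = 0.0340 by limma). It was no longer called without any 1 library other than P5 wt library 3 or 1.5M wt library 2 (adjusted p from 0.0620 to 0.126). Neither age change was called. Socs3 went from 2.47 to 0.477 in wt (log2 change −1.25, SE 0.41, adjusted p = 0.0877) and from 8.80 to 20.1 in KO (1.10, SE 0.41, adjusted p = 0.189). The wt value passed with a pseudocount of 0.1 (0.0457) and without P5 wt library 3 (0.0380) or 1.5M wt library 2 (0.0261), the latter being the library that held both Socs3 molecules of its group. The KO value passed with a pseudocount of 10 (0.00469) and when the 6 KO libraries were fitted alone (0.0451).

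RefSeq promoters (GRCm38.p6) were at hand for 7 of the 10 genes, not for Cd83, Cd86 and Cd40. The 250 bases before each start were read on both strands for 4 motifs. The STAT motif TTCNNNGAA was found in the promoters of Socs3 and Icam1, and in 7.02% of 32851 promoters. These promoters are shown because they hold the STAT motif, a choice made after the matches were found. The part of the motif in the levels of Socs3 and Icam1 was not tested. Capitals mark the motif.
Socs3, chr11:117969452-117969616, minus strand, ending 85 bases before the start: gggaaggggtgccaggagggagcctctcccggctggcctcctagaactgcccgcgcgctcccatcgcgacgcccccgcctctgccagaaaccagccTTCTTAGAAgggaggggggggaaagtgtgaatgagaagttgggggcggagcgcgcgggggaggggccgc
Icam1, chr9:21015690-21015939, plus strand, ending at the start: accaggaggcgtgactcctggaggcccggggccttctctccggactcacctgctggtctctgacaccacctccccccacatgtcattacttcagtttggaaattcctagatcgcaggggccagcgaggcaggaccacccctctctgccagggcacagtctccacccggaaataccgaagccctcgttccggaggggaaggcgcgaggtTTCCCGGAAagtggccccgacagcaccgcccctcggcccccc
The motif began 154 bases before the Socs3 start and 42 bases before the Icam1 start, each the start given by RefSeq. The GENCODE position of Icam1 given above begins further downstream, at 21015985. The Socs3 stretch lies within the annotated span of the gene, since GENCODE has a transcript that starts further upstream. Of the other motifs, the Runx motif (TGTGGT or TGCGGT) was in Cd274, against 18.6% of all promoters, and the AP-1 motif TGANTCA in Cd80, against 6.75%. The strict NF-kappaB consensus was in Pdcd1lg2, against 7.25%, and looser forms of that site were not sought. A match describes letters and no binding was measured.

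Over the 9 tested members, calls were few in each comparison. At P5, 1 member was higher in KO (Socs3) and 0 were lower. Of all 10023 genes tested 1.8% were called there, 1.15% higher and 0.649% lower. At 1.5M, 1 was higher (Socs3) and 1 lower (Cd86), against a background of 5.28%, with 3.24% higher and 2.04% lower. With age 2 were higher in wt (Cd83 and Cd86), where the background was 5.21%, with 2.36% higher and 2.84% lower. In KO it was 1 (Cd83), where the background was 3.14%, with 1.72% higher and 1.43% lower. The knockout effects differed between the ages for 2 members (Cd83 and Socs3), with 2.0% of all genes called, 1.32% upward and 0.678% downward. An unadjusted p under 0.05 was reached by 5, 4, 6, 3 and 3 members in these comparisons, in the order given, beside 12.8%, 14.9%, 18.2%, 14.2% and 13.3% of all genes. Cd274 and Cd80 were among the 5 at P5, on 5 and 3 molecules in KO and 0 in wt. The median log2 value of the 9 members in these 5 comparisons was 0.73, 0.12, 0.30, 0.61 and −0.63, beside −0.01, 0.09, −0.22, −0.06 and 0.13 for all genes tested. The comparisons share groups, so their calls are not independent, and calls of 1 or 2 genes among 9 describe those genes and not the set. The members were chosen with earlier results of these data known. Their counts and medians beside those of all genes are therefore a description only. No gene at all was called at P5 by limma when the 6 P5 libraries were fitted alone (836 genes at an unadjusted p under 0.05).

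**Figure D2:**
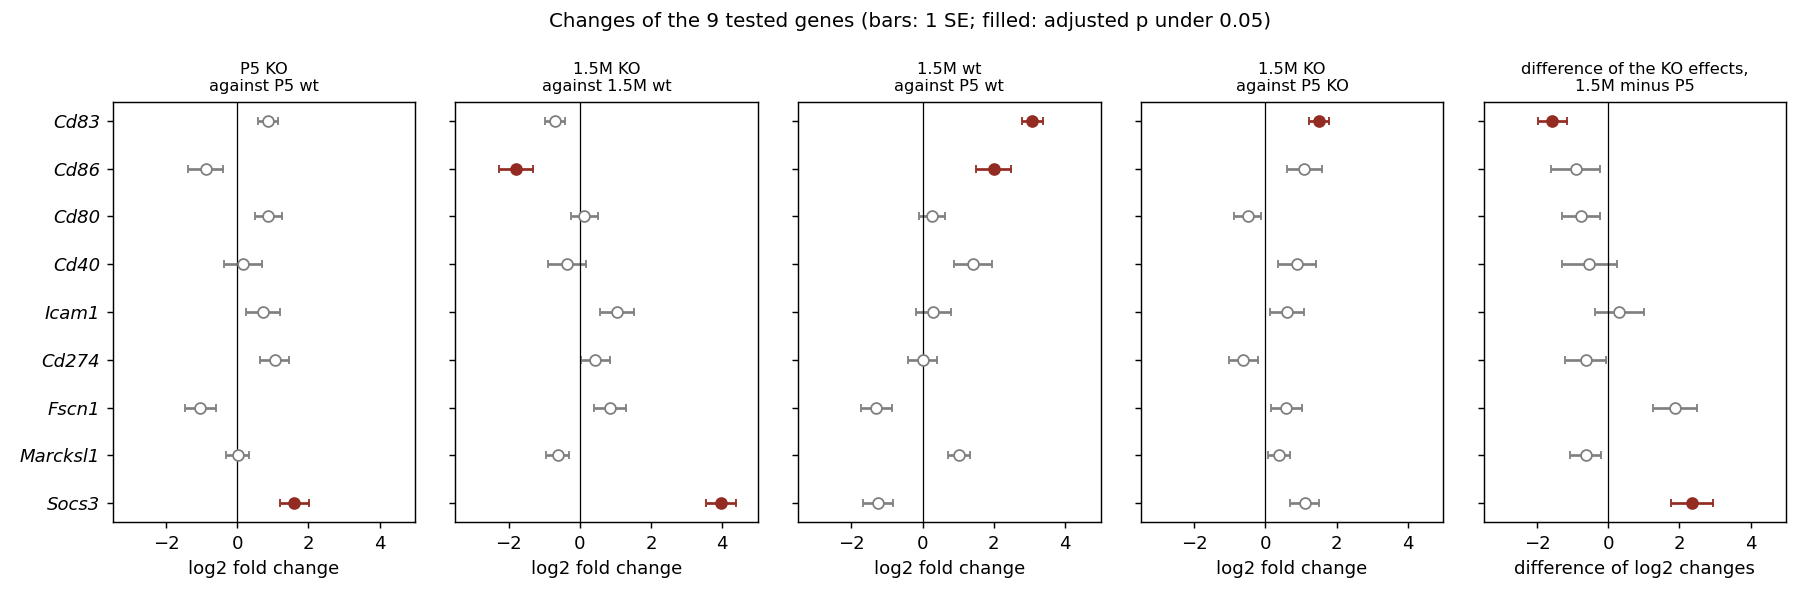
Log2 fold changes of the 9 tested genes (horizontal axis; the last panel gives the difference of 2 such changes) with bars of 1 SE, filled where the adjusted p was under 0.05. The filled points are Socs3 in both knockout comparisons and in the difference, Cd86 at 1.5M and with age in wt, and Cd83 with age in both genotypes and in the difference.

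Other genes of the maturation programme of dendritic cells moved with Cd83 and Cd86 in some members only. Of 36 listed genes 28 were tested, and with age in wt 5 rose and 1 fell. Among them were Tnfaip2, an NF-kappaB target (2.32 ± 0.463 to 108 ± 4.02, log2 change 5.05, adjusted p = 6.75e-10 by limma), H2-M2, a nonclassical MHC class I gene (4.69, adjusted p = 1.72e-07), Tbc1d4, a regulator of Rab proteins (3.84, adjusted p = 2.94e-08), and Rabgef1, an activator of Rab5 (2.05, adjusted p = 0.00718). At 1.5M 3 were lower in KO, namely Tbc1d4 (111 ± 13 in wt and 4.35 ± 1.39 in KO, −4.41), Tnfaip2 (−2.57) and Mreg, the melanosome and phagosome protein melanoregulin (−2.08). Mreg had no molecule in KO, and its wt mean was 7.04-fold above the 3-molecule level there. The T cell attracting chemokine Ccl17 was higher in KO (4.35, adjusted p = 3.46e-06), with 168 molecules against 1. At P5 Tbc1d4 (−2.95) and the tetraspanin Cd63 (−1.60) were lower in KO and 0 were higher. Tbc1d4 had no molecule in P5 KO, and its P5 wt mean was 7.58-fold above the 3-molecule level there. With age in KO 5 rose and 0 fell, with Ccl17 at 4.61, H2-M2 at 3.64, Tbc1d4 at 2.39 and Tnfaip2 at 2.14. The 1.5M KO means of Ccl17 and Tbc1d4 were 29.8-fold and 4.80-fold above that level, neither having a molecule in P5 KO. The knockout effect differed between the ages for Ccl17 (4.68), Tnfaip2 (−2.90) and Cd63 (1.98). The median of the list was 0.06 at P5, 0.38 at 1.5M, 0.00 with age in wt and 0.18 with age in KO. For all genes tested it was −0.01, 0.09, −0.22 and −0.06. The shares of all genes called higher and lower were 1.15% and 0.649% at P5 and 3.24% and 2.04% at 1.5M. With age they were 2.36% and 2.84% in wt and 1.72% and 1.43% in KO, and for the difference 1.32% and 0.678%. After thinning to equal depth Rabgef1 in wt (0.0909) and the Cd63 difference (0.0774) were no longer called. The same held for Tbc1d4 in KO with a pseudocount of 10 (0.0627), and for Rabgef1 in wt (0.0614) and Tnfaip2 in KO (0.0881) when the compared groups were fitted alone.

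Genes of CD40 and NF-kappaB signalling were higher at P5 in KO for 4 of 23 tested and lower for 0. They were Nfkbiz (2.28, adjusted p = 0.00368 by limma), Nfkbia (1.82, adjusted p = 0.00969) and Tnfaip3 (1.23, adjusted p = 0.0448), all inhibitors or cofactors induced by the pathway, and the CD40 adaptor Traf3 (1.52, adjusted p = 0.0481). Traf3 had no molecule in wt and 6 in KO, where its mean was 2.11-fold above the 3-molecule level in wt. With age in wt 5 rose and 0 fell, with Tnfaip3 at 3.04, Nfkbiz at 2.65, Nfkbia at 2.23 and Nfkbie at 2.18. At 1.5M 1 gene, Tnip1, a partner of the Tnfaip3 protein, was lower in KO (−1.62, adjusted p = 0.0178), and with age in KO 1, Tnfaip3, rose (1.41, adjusted p = 0.0120). No knockout effect differed between the ages by limma (5 genes at an unadjusted p under 0.05). The list median was 0.36 at P5, −0.20 at 1.5M, 0.57 with age in wt and −0.01 with age in KO. For all genes tested it was −0.01, 0.09, −0.22 and −0.06. The shares of all genes called higher and lower were 1.15% and 0.649% at P5 and 3.24% and 2.04% at 1.5M. With age they were 2.36% and 2.84% in wt and 1.72% and 1.43% in KO. For the difference 13.3% of all genes had an unadjusted p under 0.05. Single libraries ended the P5 calls of Nfkbia (P5 KO library 3, 0.0568), Tnfaip3 (all but P5 wt 1 and P5 KO 2, up to 0.206) and Traf3 (all but 1.5M KO 2, up to 0.136), that of Tnip1 (1.5M KO 1 or 2, 1.5M wt 1 or 2, up to 0.113) and that of Tnfaip3 in KO (P5 KO 2, 1.5M KO 2 or 3, up to 0.0903). In the fit of the 6 wt libraries alone Nfkbiz (0.0925), Nfkbia (0.139) and Nfkbie (0.0658) were no longer called with age, nor was Tnfaip3 in that of the KO libraries (0.0689). Thinning ended the calls of Tnip1 at 1.5M (0.253), of Tnfaip3 in KO (0.0502) and at P5 (0.197) and of Traf3 (0.117), and a pseudocount of 0.1 those of Tnip1 at 1.5M (0.0588), Traf3 (0.102), Tnfaip3 at P5 (0.0857) and, by a narrow margin, Nfkbiz at P5. Counting all alternatives, Traf3 was lost in 17 of 19 and Tnfaip3 at P5 in 15 of 20. The P5 KO group also had the highest mean sums of keratinocyte, neutrophil and erythroid markers, whose part in the P5 calls of this list was not tested.

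Further costimulators and adhesion molecules were tested for 11 of 22 symbols in the table. The shares of all genes called higher and lower in KO were 3.24% and 2.04% at 1.5M and 1.15% and 0.649% at P5. With age 2.36% rose and 2.84% fell in wt, and 1.72% rose and 1.43% fell in KO. The difference was called for 2.0%. At 1.5M the inhibitory B7 relative VISTA (4632428N05Rik; 3.07, adjusted p = 8.75e-06 by limma) and Icosl, the ligand of ICOS (2.40, adjusted p = 0.00219), were higher in KO, and Cd24a was lower (−4.33, adjusted p = 4.28e-06). Cd24a also stands in the Langerhans cell marker list. With age in wt Pvr, the poliovirus receptor and ligand of CD226 (2.51, adjusted p = 0.000247), and Cd24a (2.14, adjusted p = 0.0143) rose. In KO Cd276, which encodes B7-H3 (2.05, adjusted p = 0.0113), rose and Cd24a fell (−2.13, adjusted p = 0.0206), and the knockout effect on Cd24a differed between the ages (−4.28, adjusted p = 0.00115). Havcr2, the TIM-3 receptor, was lower in KO at P5 (−1.56, adjusted p = 0.0472). Single libraries ended the calls of Havcr2 (all but P5 KO 2 and 1.5M KO 2, up to 0.178), of Cd24a with age in wt (P5 wt 3, 1.5M wt 1 or 3, up to 0.0934) and in KO (P5 KO 1 or 3, any 1.5M KO library, up to 0.118), and of Cd276 (P5 KO 1, any 1.5M KO library, up to 0.0740). On a list of 10 T cell counter-receptors and integrin chains 3 were tested, and the single call was Itgb2. It encodes the beta chain of LFA-1 and of the integrin of CD11b, on which these cells were sorted. Itgb2 rose with age in KO (1.40, adjusted p = 0.0341), a call lost without any 1 KO library (up to 0.180) and after thinning (0.228). Thinning also ended the calls of Havcr2 (0.167), Cd24a in wt (0.0810) and in KO (0.0621) and Cd276 (0.192), and fits of the compared groups alone those of Pvr (0.0614), Cd24a in wt (0.180) and in KO (0.121), Cd276 (0.0760) and Itgb2 (0.0538). Counting all 20 alternatives, Havcr2 was lost in 17, Cd24a in 6 in wt and 8 in KO, Cd276 in 7 and Itgb2 in 9.

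Cytokine receptors, STATs and SOCS relatives, the setting in which Socs3 acts, were tested for 27 of 29 genes. At 1.5M 3 were higher in KO beside Socs3 and 0 were lower. They were the interferon-gamma receptor chain Ifngr1 (2.75, adjusted p = 0.000308 by limma), the LIF receptor Lifr (2.11, adjusted p = 0.00279) and the transcription factor Irf1 (1.70, adjusted p = 0.0440). Lifr had no molecule in wt, and its KO mean was 4.09-fold above the 3-molecule level there. Ifngr1 fell with age in wt (−2.42, adjusted p = 0.00156). At P5, with age in KO and in the difference, limma called 0, with 9, 7 and 6 genes at an unadjusted p under 0.05. Of all genes tested, 12.8%, 14.2% and 13.3% reached that p in these comparisons. At 1.5M 3.24% of all genes were called higher and 2.04% lower in KO, and with age in wt 2.36% rose and 2.84% fell. The Irf1 call was lost without any 1 library other than P5 wt 2 or 3 and P5 KO 1 or 3 (up to 0.174), with a pseudocount of 0.1 (0.270) and without a filter (0.0520). Thinning to equal depth ended the calls of Irf1 (0.0985) and Lifr (0.0738) in this comparison, whose KO libraries were the deeper. The fall of Ifngr1 was lost with a pseudocount of 10 (0.0502) and in the fit of the wt libraries alone (0.103).

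Actin regulators related to Fscn1 and Marcksl1 were tested for 13 of 18 genes. Marcks, the relative of Marcksl1, was higher in KO at P5 (7.75 ± 3.96 in wt and 30.9 ± 3.96 in KO, 1.99, adjusted p = 0.0126 by limma) and at 1.5M (3.34 ± 2.82 and 20.5 ± 5.14, 2.50, adjusted p = 0.000293). At 1.5M the crosslinker Actn1 (2.97) and Arpc2, a subunit of the Arp2/3 complex (1.87), were also among 4 higher genes, and Vasp, which promotes filament growth (−1.41), was lower. Actn1 had no molecule in 1.5M wt, and its KO mean was 8.37-fold above the 3-molecule level there. With age in wt 3 fell, namely Evl (−1.98), Actn1 (−1.5) and Cfl1, which encodes cofilin (−0.95), and the bundling protein Lcp1 rose (0.70). The P5 wt means of Evl and Actn1 were 4.0-fold and 2.22-fold above the 3-molecule level in 1.5M wt, where neither had a molecule. Lcp1 rose in KO as well (1.52, adjusted p = 1.75e-05), was lower in KO at P5 (−0.73, adjusted p = 0.0480), and the knockout effect on Actn1 differed between the ages (2.86, adjusted p = 0.0108). The shares of all genes called higher and lower were 1.15% and 0.649% at P5 and 3.24% and 2.04% at 1.5M. With age they were 2.36% and 2.84% in wt and 1.72% and 1.43% in KO, and for the difference 1.32% and 0.678%. Single libraries ended the calls of Marcks at P5 (P5 wt 2 or P5 KO 1, up to 0.0852), Lcp1 at P5 (each of 12, up to 0.215) and in wt (P5 wt 1 or 3, 1.5M wt 2 or 3, up to 0.113), Evl (P5 wt 1 or 3, up to 0.0767), Actn1 in wt (all but the P5 KO libraries, up to 0.111) and the Actn1 difference (1.5M KO 3, 0.0572). Thinning ended those of Marcks (0.0970) and Lcp1 (0.167) at P5, of Evl (0.122), Actn1 (0.185) and Lcp1 (0.115) in wt and of the Actn1 difference (0.0982). Fits of the compared groups alone ended those of Marcks at 1.5M (0.0526) and, in wt, of Cfl1 (0.0822), Evl (0.125), Actn1 (0.0658) and Lcp1 (0.137). Counting all 20 alternatives, Lcp1 at P5 was lost in 18 and Actn1 in wt in 16.

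The genes with profiles nearest to the 3 called members were sought among 1079 genes above 0 in all 12 libraries with a mean of at least 5. The measure was the root mean square difference over the 12 libraries of log2(value + 1), each gene minus its own mean. Nearest to Cd83, whose own root mean square deviation was 1.26, were Rasgef1b (0.465), Cdkn1a (0.510) and Il1b (0.520). Nearest to Cd86 (1.22) were Scp2 (0.563), Arl4c (0.570) and Rgs2 (0.613), and nearest to Socs3 (1.57) were Crip1 (0.391), Cd14 (0.555) and 4632428N05Rik (0.672). Cd14, a co-receptor for bacterial lipopolysaccharide, is also in the macrophage and monocyte marker list. Crip1 averaged 22.2 in wt and 64.9 in KO at P5, and 5.15 in wt and 128 in KO at 1.5M. It had the same order of groups as Socs3, which its choice by nearness of profile makes likely beforehand.

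**Figure D3:**
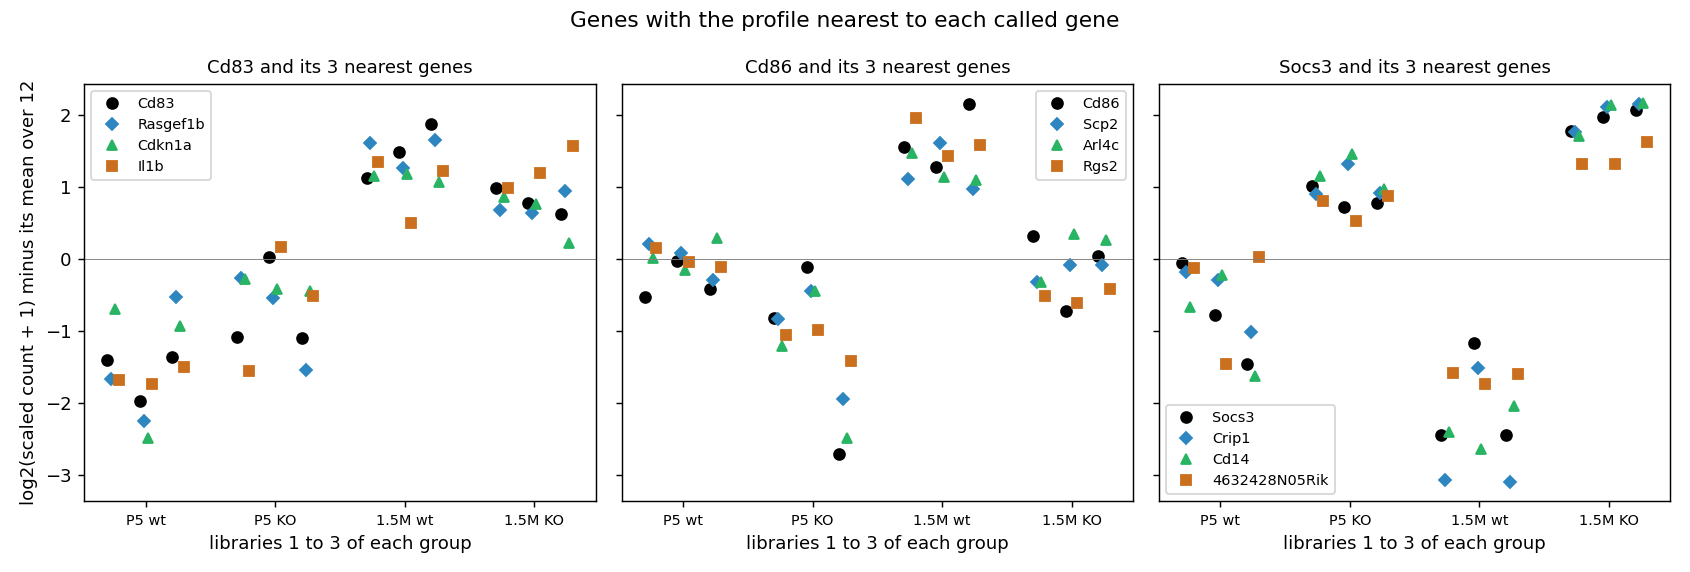
Log2(scaled count + 1) minus the mean over 12 libraries (vertical axis) of Cd83, Cd86 and Socs3 (black) and the 3 genes nearest to each, in the 3 libraries of each group (horizontal axis). Crip1, the nearest gene to Socs3, differed from it by 0.391 (root mean square).

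Marker lists of epidermal myeloid cells differed between the groups. The summed level of 14 Langerhans cell markers was 96.6 to 115 in wt and 36.0 to 45.9 in KO at P5, and 477 to 583 in wt and 81.5 to 102 in KO at 1.5M, so it was highest in the group where Cd83, Cd86 and Marcksl1 had their highest means. The sum and Cd83 differed in the order of the other 3 groups, the sum being lower and Cd83 higher in P5 KO and 1.5M KO than in P5 wt. The sum of 20 macrophage and monocyte markers was 236 to 293, 322 to 405, 125 to 151 and 662 to 756 in the same order, the order of the groups for Socs3. At 1.5M the macrophage list had 10 of 18 tested genes higher in KO and 1 lower, and the Langerhans list 8 of 13 lower and 1 higher, beside 3.24% higher and 2.04% lower among all genes. In 1.5M wt 9 of the 20 macrophage markers were at 0. The part of these cell types in the members' differences was not tested.

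Keratinocyte, neutrophil and erythroid markers had their highest group means in P5 KO. There the 18 keratinocyte markers summed to 795, 257 and 292, against 78.1 to 108 in P5 wt and at most 58.1 at 1.5M, and the neutrophil markers to 51.9 to 246, against at most 20.0 elsewhere. Erythroid markers reached 361 and 491 in P5 KO libraries 1 and 2 and at most 4.26 in the other 10. Socs3 was 9.99, 8.0 and 8.40 in the 3 P5 KO libraries, and the highest Cd83 value of that group (24.7) was in the library with its lowest keratinocyte and neutrophil sums and its highest erythroid sum. From 3 libraries no relation between these values can be read, and none was tested. Dermal dendritic cell markers summed to 29.0 to 33.8 in wt and 21.8 to 39.4 in KO at P5, and to 14.5 to 19.8 and 29.4 to 38.0 at 1.5M, and T and NK cell markers to at most 2.72 in any library. B cell markers reached 16.8 in P5 KO library 3 and mast cell markers at most 1.42. Immediate early and heat shock genes, which also respond to cell handling, summed to 216 to 367 in wt and 360 to 425 in KO at P5, and to 594 to 782 and 534 to 619 at 1.5M. With age in wt 2.36% of all genes tested rose and 2.84% fell, and of the 24 tested on this list 10 rose and 0 fell. The part of the cell types and of the immediate early genes in the differences of the members and of the other lists was not tested.

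**Figure D4:**
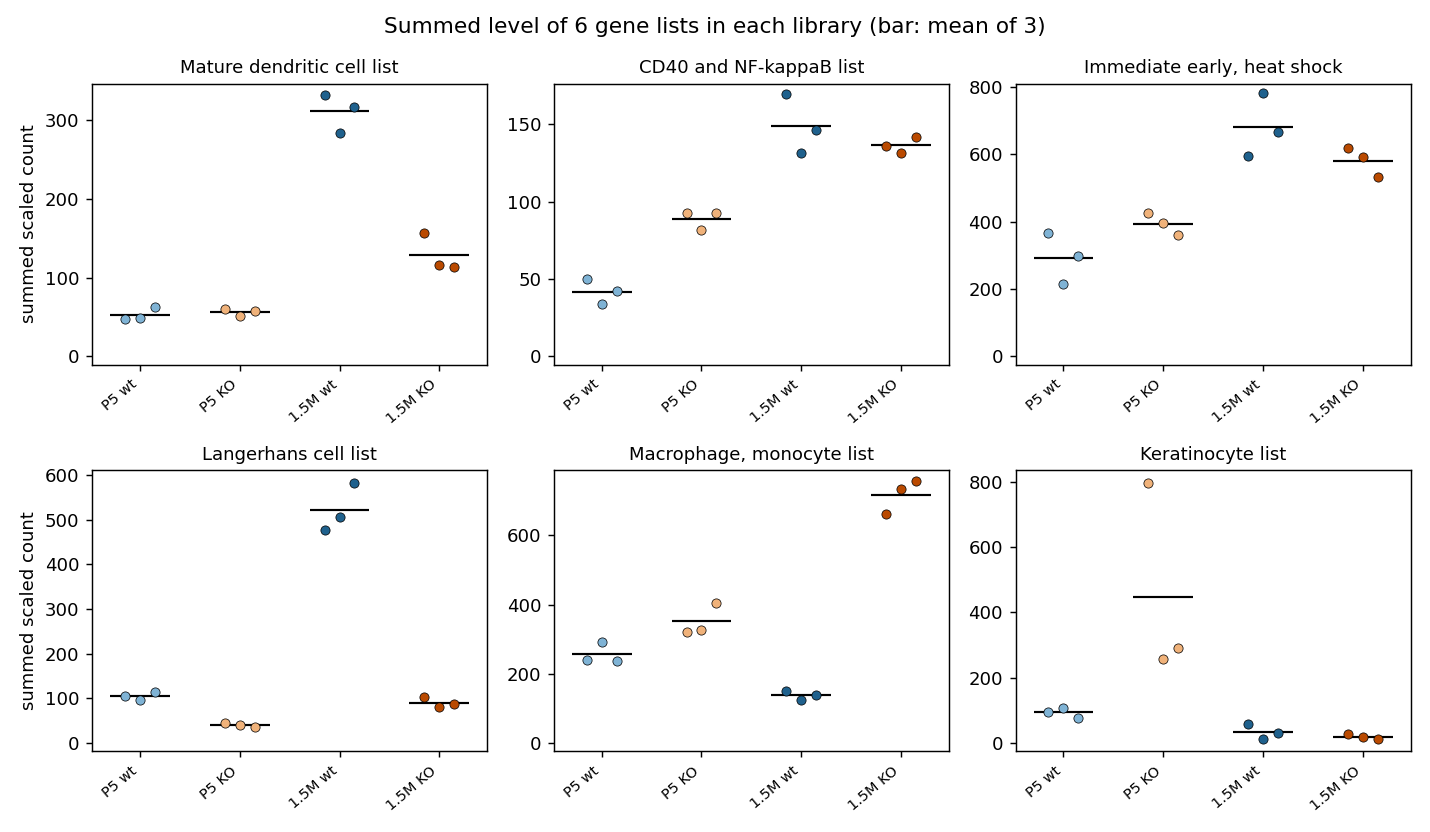
Summed scaled count (vertical axis, linear) of 6 gene lists in each of the 12 libraries, with points for libraries and a bar for the mean of 3. The mature dendritic cell list reaches 284 to 332 in 1.5M wt and at most 157 elsewhere. Tbc1d4, Tnfaip2 and H2-M2 make up 82.1% of its mean in 1.5M wt. Without these 3 genes the list has its highest mean in the older knockout, 91.0, against 55.7 for the wild type of that age. For newborns this remainder is 52.2 with the knockout and 42.8 without. The macrophage and monocyte list is highest in 1.5M KO (662 to 756), and the keratinocyte list is highest in P5 KO (257 to 795).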

How the data were processed

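Expression was measured from oligo-dT primed RNA with a molecular barcode, per the labels' protocols. Reads were aligned with TopHat2 to mm10, per the submitters' processing notes. For the annotation, counting tool, strand setting and scaling, nothing is given in the sources used here. Values were deposited as a signal for each symbol and library, never below 0. In each library, 92.6% to 94.9% of values above 0 were whole multiples (tolerance 0.01) of 1 step, taken as 1 molecule. This gave depths, approximate molecule numbers and the 3-molecule floor, but no count model was used. Intervals and floors cover counting error only. A fold above the 3-molecule level leaves out the counting error of the observed mean, so it is no lower bound.

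limma 3.58.1 (R 4.3.3) was fitted with trend to log2(value + 1) as 4 group means over 12 libraries, for 10023 genes above 0 in at least 3. All tests were two-sided, p-values were adjusted by Benjamini-Hochberg over the genes tested, and 0.05 was the threshold. Fold changes on this scale understate low genes. The members, the lists and the rule for named list genes (per comparison, the 4 called genes with the largest change) were chosen with earlier results of these data known. Symbols of lists were matched through RefSeq synonyms where needed. Gene positions are from GENCODE on mm10. Alternatives were 2 pseudocounts, 2 filters, median-of-ratios scaling, thinning to 30796 molecules, fits of the compared groups alone, a replicate block and leaving out each library.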

Additional observations from a re-analysis of the deposited data

Results flagged for a closer look

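Cd83 and Socs3 stood out because the effect of the knockout differed between the ages in a test of that difference. For Cd83 the difference, 1.5M minus P5, was −1.57 on the log2 scale (SE 0.41, adjusted p = 0.0446 by limma), with means of 15.5 in KO and 7.58 in wt at P5 and 43.0 and 72.0 at 1.5M. For Socs3 it was 2.36 (SE 0.59, adjusted p = 0.0340), with means of 8.80 in KO and 2.47 in wt at P5 and 20.1 and 0.477 at 1.5M. The Cd83 difference was lost in 14 and the Socs3 difference in 12 of 19 alternatives. Both were lost after thinning to equal depth, with adjusted p of 0.201 and 0.0889.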

How the results depend on the processing

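The rise of Cd83 with age in wt and the higher Socs3 in 1.5M KO were called under all 20 alternatives. The number of members called depended on the setting. At P5 it was 1, and 0 with a pseudocount of 0.1, without a filter, after thinning, in a fit of the compared groups alone and with the replicate block, and 0 to 1 when single libraries were left out. At 1.5M it was 2, and 1 with a pseudocount of 0.1 (1 to 2 without single libraries). With age in wt it was 2, and 1 after thinning, 3 with a pseudocount of 10, a filter of 6 libraries or median-of-ratios scaling (Marcksl1 added) and 2 with a pseudocount of 0.1 or without P5 wt library 3, there with Socs3 in place of Cd86 (1 to 3 without single libraries). With age in KO it was 1, and 2 with a pseudocount of 10 (Socs3 added), and 1 in the fit of the KO libraries alone, there Socs3 in place of Cd83 (1, Cd83, without any single library). For the difference it was 2, and 0 with a pseudocount of 0.1 or thinning, 1 with a pseudocount of 10, without a filter or with the replicate block (0 to 1 without single libraries). The causes were not tested. Deviations of same-numbered libraries had correlations between −0.017 and 0.023. At P5 the same-numbered pairs of KO and wt libraries stood at 0.013 to 0.023 and the others at 0.0038 or less. This order held in no other comparison. Counting error in low genes weakens such correlations, so they cannot show whether the numbers pair the samples. Under the replicate block the adjusted p by limma was 0.0552 for Socs3 at P5 and 0.0512 for the Cd83 difference.

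Signs turned only for members with no call. Leaving out single libraries, the log2 values ranged from −0.0068 to 0.38 for Cd80 at 1.5M (negative without 1.5M wt library 1 or 3), from −0.33 to 0.50 for Cd40 at P5 (negative without P5 KO 1), from −0.12 to 0.75 for the Icam1 difference (negative when P5 wt 2, P5 KO 1 or 1.5M KO 3 was left out) and from −0.20 to 0.32 for Marcksl1 at P5 (negative when P5 wt 3, P5 KO 1 or P5 KO 2 was left out). After thinning the Icam1 difference was −0.075.

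The count of all genes called was 180 at P5, and 92 with a pseudocount of 0.1, 118 without a filter, 82 after thinning and 0 in the fit of 6 libraries (74 to 154 without single libraries). At 1.5M it was 529, and 333 after thinning (336 to 548). With age it was 522 in wt, and 287 after thinning and 111 alone (365 to 569), and 315 in KO, and 182 and 86 (143 to 339). For the difference it was 200, and 133 with a pseudocount of 0.1 and 101 after thinning (115 to 198). The difference has no fit of its own groups alone. Median-of-ratios scaling moved the median of all genes with age in wt from −0.22 to −0.11 and the share called higher from 45.4% to 61.1%, with Cd83 at 3.28 and Cd86 at 2.18. Depth limited Cd80, Cd274, Pdcd1lg2 and Fscn1, with 2 to 12 molecules each.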

Other observations

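Of the immediate early and heat shock genes, 5 of 24 tested were higher in KO at P5 and 0 were lower, among them the phosphatase gene Dusp1 (2.17, adjusted p = 3.28e-05 by limma) and the transcription factors Egr1 (1.66), Klf6 (1.36) and Jund (1.07). At 1.5M 3 were higher and 3 lower, with Klf4 (1.97) and Klf6 (1.57) higher in KO and the growth regulator Btg2 (−2.30) and the chaperone Hspa1b (−1.82) lower. With age in wt the 10 that rose were led by the AP-1 subunit Fosb (15.1 ± 8.11 to 132 ± 27.5, 3.14, adjusted p = 7.44e-08), Nr4a1 (2.18), Egr1 (2.14) and Btg2 (2.05). With age in KO Fosb (2.63) and Atf3 (1.99) were among 4 that rose, and the chaperones Hspb1 (−2.31) and Hspa1b (−1.34) among 3 that fell. No knockout effect on this list differed between the ages by limma (9 genes at an unadjusted p under 0.05, beside 13.3% of all genes). The shares of all genes called higher and lower were 1.15% and 0.649% at P5 and 3.24% and 2.04% at 1.5M. With age they were 2.36% and 2.84% in wt and 1.72% and 1.43% in KO. Single libraries ended the P5 calls of Egr1 (P5 wt 3, P5 KO 1 or 3, up to 0.109), Klf6 (all but P5 wt 1 and P5 KO 3, up to 0.210) and Jund (P5 wt 2 or 3, P5 KO 1 or 3, up to 0.0882), that of Klf6 at 1.5M (1.5M KO 2, 0.0537), and in KO those of Hspb1 (any KO library, up to 0.146) and Hspa1b (P5 KO 2, 1.5M KO 2 or 3, up to 0.0670). Thinning ended the calls of Klf6 (0.175) and Jund (0.152) at P5, Btg2 in wt (0.0658) and Hspb1 (0.0805), and fits of the compared groups alone those of all 4 genes named at P5 (0.206 to 0.483), Klf4 (0.148), Egr1 (0.0614) and Btg2 (0.103) in wt, and Hspb1 (0.0513) and Hspa1b (0.0765) in KO. Counting all 20 alternatives, Klf6 at P5 was lost in 14 and Hspb1 in 9.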
